A study of Arabidopsis thaliana with 30 samples.

Results

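The REVEILLE (RVE) genes RVE1, RVE2, RVE4, RVE6, RVE7 and RVE8 and the LNK genes LNK1, LNK2 and LNK3 were examined in whole leaves of Arabidopsis thaliana during a 24 h response to coronatine. They were taken by locus identifier from a table of 27655 genes, in which all 9 were found, and all 9 had enough signal to be tested among 19005 genes. Leaves came from Col-0 plants labelled jazD, 26 days old, that received a spray of 5 µM coronatine, or of plain water (mock), and were harvested at 0, 1, 3, 12 and 24 h, with 3 libraries per treatment and time and 30 in all. Coronatine is a bacterial toxin that mimics the jasmonate conjugate jasmonoyl-isoleucine and acts through the receptor COI1. All groups carried jazD, a line that from general knowledge lacks most of the JAZ repressors of jasmonate signalling, and no wild-type library was analysed here. Plants grew in 16 h of light and 8 h of darkness. The clock time of the spray is not given in the sources used here, and no label states that the replicates were separate plants, so p-values measure the spread between these libraries.

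RVE proteins are single-MYB transcription factors related to the clock proteins CCA1 and LHY. RVE8, RVE4 and RVE6 activate genes that peak in the evening, many of which carry the DNA sequence called the evening element, and LNK1 and LNK2 bind RVE8 as coactivators. RVE1, RVE2 and RVE7 belong to another branch of the family: RVE1 links the clock to auxin synthesis and to protochlorophyllide reductase, RVE2 is also known as CIRCADIAN 1, and RVE7, also called EPR1, was described as a gene induced early by phytochrome. LNK3 is a smaller relative of LNK1 and LNK2. In wild-type plants most of these genes have a daily rhythm with a morning peak.

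The members lie apart in the TAIR10 genome. RVE1 (AT5G17300) is at chr5:5690227-5692902, RVE2 (AT5G37260) at chr5:14751344-14753088 and RVE6 (AT5G52660) at chr5:21359059-21362160, all on the reverse strand, and RVE4 (AT5G02840) is at chr5:648704-651972 on the forward strand. RVE7 (AT1G18330) is at chr1:6305971-6308010 on the reverse strand and RVE8 (AT3G09600) at chr3:2946406-2948995 on the forward strand. LNK1 (AT5G64170) is at chr5:25672466-25676746 and LNK2 (AT3G54500) at chr3:20175370-20179027, both on the reverse strand, and LNK3 (AT3G12320) is at chr3:3923735-3925465 on the forward strand. RVE7 has similar sequence elsewhere. Of its 2026 exon bases, 69.6% matched other places in the nuclear genome at 95% identity or more, in stretches of at least 50 bases. The match of highest identity (100% over 62 bases) lay in the locus AT3G10113, and the share of matched bases in that locus alone was not counted. AT3G10113 read at most 0.2 TPM in any library. Reads of RVE7 and of similar sequence could have been split, and the RVE7 level is uncertain to that extent. Exon bases of the other 8 members had no such match. RVE1, LNK1, LNK2 and LNK3 overlap genes on the opposite strand over 225, 245, 359 and 5 bases, and whether counting used strand is not given in the sources used here.

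Short DNA words tied to the clock or to jasmonate were searched on both strands of the 250 bases upstream of each gene start as RefSeq annotates it, which for most members differs from the deposited start: the evening element AAAATATCT, the CCA1-binding site AAAAATCT and the G-box CACGTG, which the jasmonate activator MYC2 and phytochrome-interacting factors can bind. The 5 members with a match in this window are shown, whatever the size of their change, with each match in capitals. Sequence is TAIR10.1 as held by RefSeq, read 5′ to 3′ on the strand of the gene, from chr5:5692993-5693242 (RVE1), chr5:14753089-14753338 (RVE2), chr3:3923265-3923514 (LNK3), chr1:6308244-6308493 (RVE7) and chr5:21362274-21362523 (RVE6).
RVE1: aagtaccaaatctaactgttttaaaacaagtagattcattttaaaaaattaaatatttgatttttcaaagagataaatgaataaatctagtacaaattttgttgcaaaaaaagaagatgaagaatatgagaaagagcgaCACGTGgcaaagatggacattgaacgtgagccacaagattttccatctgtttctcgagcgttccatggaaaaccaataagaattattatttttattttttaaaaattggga
RVE2: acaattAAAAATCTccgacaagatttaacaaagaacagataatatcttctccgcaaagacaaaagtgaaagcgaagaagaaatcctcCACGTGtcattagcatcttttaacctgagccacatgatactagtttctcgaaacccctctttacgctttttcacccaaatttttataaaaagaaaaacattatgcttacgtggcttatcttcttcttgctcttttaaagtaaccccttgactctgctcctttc
LNK3: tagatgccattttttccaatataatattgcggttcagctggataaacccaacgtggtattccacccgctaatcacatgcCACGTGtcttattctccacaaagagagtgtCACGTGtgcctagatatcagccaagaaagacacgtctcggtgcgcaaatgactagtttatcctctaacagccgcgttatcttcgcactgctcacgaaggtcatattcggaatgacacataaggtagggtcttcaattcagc
RVE7: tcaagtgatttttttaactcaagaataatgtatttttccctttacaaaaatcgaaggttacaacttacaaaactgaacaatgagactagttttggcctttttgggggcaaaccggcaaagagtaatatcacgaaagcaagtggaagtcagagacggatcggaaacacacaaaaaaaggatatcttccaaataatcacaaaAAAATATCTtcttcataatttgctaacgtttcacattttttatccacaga
RVE6: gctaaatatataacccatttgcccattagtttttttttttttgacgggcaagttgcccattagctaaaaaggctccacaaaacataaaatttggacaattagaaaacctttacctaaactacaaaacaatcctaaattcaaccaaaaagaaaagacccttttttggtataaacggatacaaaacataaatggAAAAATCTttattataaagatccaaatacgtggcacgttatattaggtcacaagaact
The G-box lay in the windows of RVE1, RVE2 and LNK3, with LNK3 holding 2 copies, and in 6.49% of the same windows of 27443 protein-coding genes. RVE7 held an evening element starting 50 bases before its gene start, a word found in 2.36% of the windows. RVE2 and RVE6 held the CCA1-binding site, found in 6.69% of windows. In 1000 bases RVE7 held a second evening element, RVE6 a second CCA1-binding site and RVE8 2 G-boxes. Windows of 1000 bases held the evening element in 7.24% of genes, the CCA1-binding site in 21.1% and the G-box in 14.8%. A match is a description of the letters and not a binding site.

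Levels are given as TPM, an abundance scaled to transcript length and to a fixed library total, which keeps no record of depth, so the depth behind each value is unknown and its own counting error could not be given. Differences are of log2(TPM + 1), which understates the change of low genes, and were tested with limma over all 19005 genes with Benjamini-Hochberg adjustment. Over all tested genes the median log2 difference between coronatine and mock leaves was 0.02 at 0 h and −0.18, −0.46, −0.54 and −0.24 at 1, 3, 12 and 24 h. Each test was therefore run a second time after the libraries were rescaled by trimmed means of their log ratios (TMM), which left medians between −0.01 and 0.02. The words rose and fell are kept for genes with an adjusted p below 0.05 in the same direction both times. Differences given with an SE, and the p-values beside them, are those on TPM as deposited. Replicates of a group had Spearman correlations of 0.986 to 0.995 over genes. Leaf markers were high (RBCS1A, CA1, LHCB2.1 and RCA summed to between 33271.6 and 34897.4 TPM in mock leaves at 0 h), while the 3 flower and 3 root markers summed to at most 0.64 and 0.5 TPM in any library.

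At 0 h no difference between the treatments was detected for any member. Of the 9 members 0 were called by limma, with 0 at an unadjusted p under 0.05 on TPM as deposited and 1 on rescaled TPM, and 0% of all tested genes were called. The authors' deposited table also called 0 members, with an adjusted p of 1 for each. The libraries of RVE1 (24.2, 25.7 and 27.8 TPM in coronatine leaves, against 31.2, 29.6 and 28.1 TPM in mock leaves) and of RVE4 (84.5, 84.9 and 88.1 TPM, against 79.7, 83.2 and 80.0 TPM) did not overlap between treatments at 0 h, with log2 differences of −0.19 and 0.08. Neither was called (limma adjusted p = 0.947 and 0.957). The share of all genes without overlap was not counted, so no difference before treatment is read from this. In mock leaves LNK2 stood highest, at 335 ± 13.8 TPM, and RVE2 lowest, at 2.55 ± 0.450 TPM (mean ± SD, n = 3, as for all groups). Between them came LNK3 (137 ± 3.60 TPM), RVE4 (80.95 ± 1.93), LNK1 (65.2 ± 1.32), RVE8 (60.2 ± 3.02), RVE1 (29.6 ± 1.55), RVE7 (12.1 ± 1.15) and RVE6 (10.3 ± 0.691). The 3 libraries of each member did not overlap those of the next in this order. In coronatine leaves at 0 h the order was the same except that LNK1 and RVE8 overlapped, at 67.7 ± 3.31 and 62.3 ± 2.54 TPM.

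**Figure D1:**
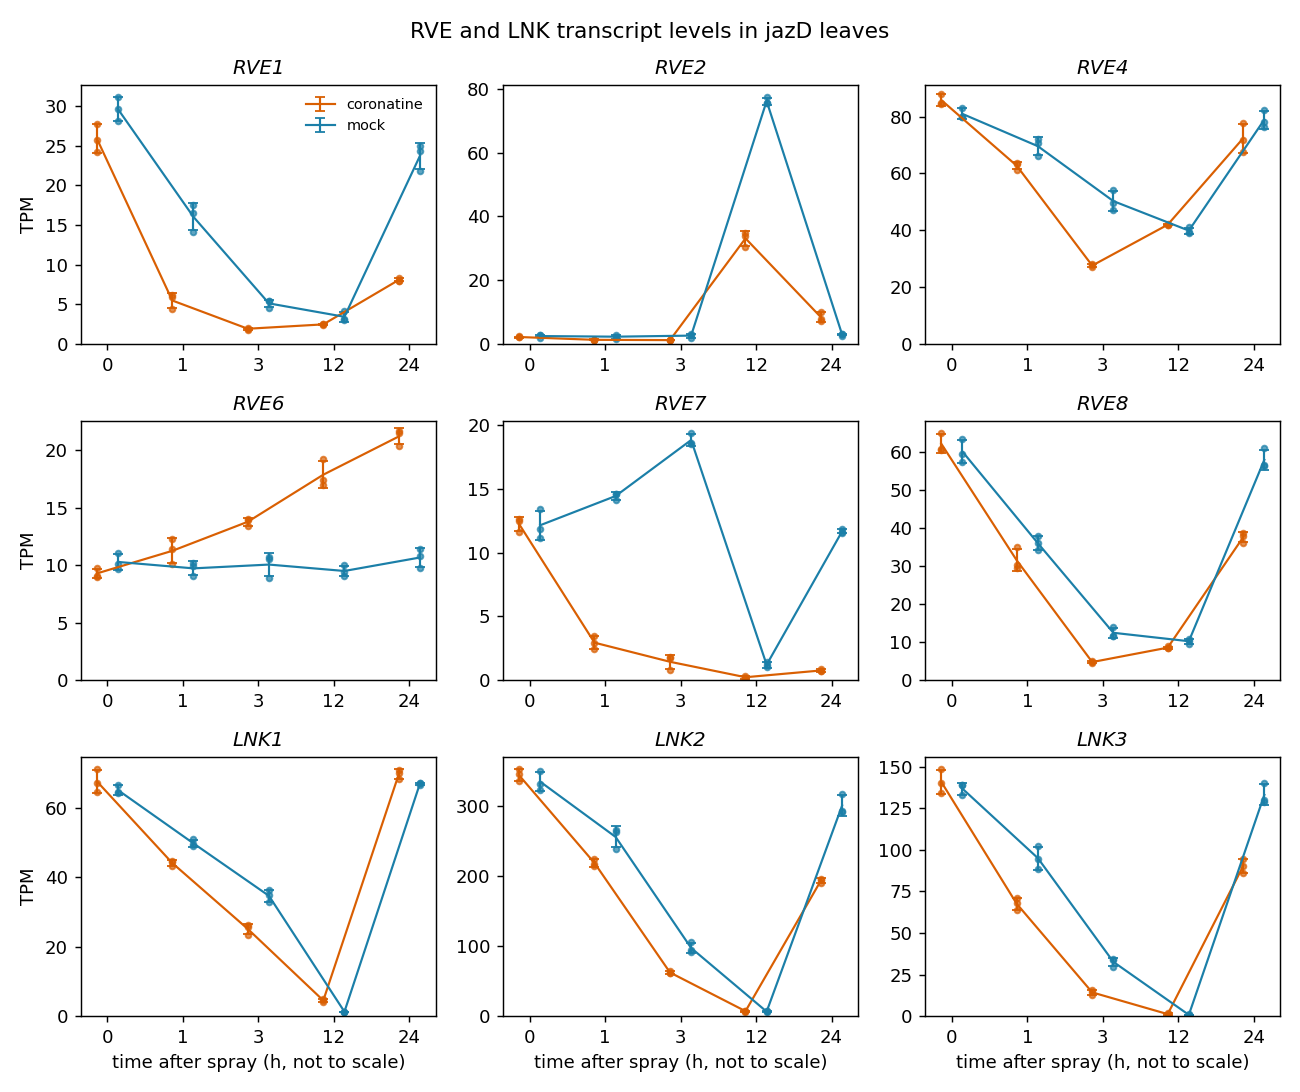
Transcript level (TPM, vertical axis from 0) of the 9 genes at 0, 1, 3, 12 and 24 h (horizontal axis, not to scale). Points are the 3 libraries of each group, lines join means and bars are SD. RVE7 in coronatine leaves stays at or below 3.47 TPM from 1 h on, and RVE6 stands at 21.2 TPM in coronatine leaves at 24 h, against 10.7 TPM in mock leaves.

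In mock leaves most of the 9 genes fell by 12 h, and at 24 h none was called different from 0 h. This course is the background for each coronatine comparison. These 4 comparisons share the mock libraries of 0 h. At 1 h, 6 members had fallen and 0 had risen, beside 7.95% of all genes falling and 11.2% rising. At 3 h, 6 had fallen and 1 had risen (20.3% and 23.4% of all genes), and at 12 h, 7 had fallen and 1 had risen (10.1% and 20.7% of all genes). At 24 h limma called 0 members against 0 h, with 2 (RVE1 and LNK2) at an unadjusted p under 0.05, and 0.221% of all genes had risen and 0.126% had fallen. RVE4 fell to 39.9 ± 1.06 TPM at 12 h and RVE8 to 10.3 ± 0.694 TPM, while RVE6 kept between 9.49 and 10.7 TPM in mean level over the 5 times and was not called on both scalings at any of them.

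The LNK genes had the widest swing in mock leaves. LNK3 read 1.05, 0.63 and 0.81 TPM at 12 h, against 139, 139 and 133 TPM at 0 h, a ratio of 165 between the 2 means. LNK2 fell to 6.62 ± 0.700 TPM at 12 h and LNK1 to 1.31 ± 0.0153 TPM, ratios of 50.7 and 49.9. RVE2 ran the other way: it read 77.4, 75.6 and 75.5 TPM at 12 h, against 2.76, 2.85 and 2.03 TPM at 0 h, with a log2 difference of 4.45 ± 0.13 (SE, limma adjusted p = 1.4e-19). RVE7 was the member that rose at 3 h, to 18.8 ± 0.463 TPM, before it fell to 1.21 ± 0.232 TPM at 12 h. RVE1 fell to 5.14 ± 0.465 TPM at 3 h and 3.45 ± 0.613 TPM at 12 h. At 12 h the order of the levels in mock leaves was thus RVE2, RVE4, RVE8, RVE6, LNK2, RVE1, LNK1, RVE7 and LNK3, and the libraries of RVE8 and RVE6 overlapped, as did those of LNK1 and RVE7 and of RVE7 and LNK3.

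Coronatine moved the members in both directions. At 1 h, 1 member rose and 4 fell, beside 9.52% of all genes rising and 15.5% falling. At 3 h, 1 rose and 6 fell (14.2% and 36.1% of all genes). At 12 h, 3 rose and 2 fell (24.3% and 41.7%), and at 24 h, 2 rose and 5 fell (37.2% and 43.5%). The median log2 difference of the 9 members was −0.22, −0.84, 0.07 and −0.55 at 1, 3, 12 and 24 h on TPM as deposited, against the medians of all genes given above, and −0.02, −0.33, 0.65 and −0.22 after rescaling. From 1 h on the epidermis markers ATML1, PDF1, PDF2 and FDH summed lower in coronatine leaves, at 10.4 to 17.0 TPM at 24 h against 352 to 365 TPM in mock leaves, and the leaf markers at 24 h summed to between 2670.67 and 3836.9 TPM in coronatine leaves, against 34923.2 to 36195.1 TPM in mock leaves. The guard cell markers FAMA, MYB60, KAT1 and HT1 summed to 106 to 108 TPM in coronatine leaves at 24 h, against 38.9 to 41.3 TPM in mock leaves, of which KAT1 made up 61.2 TPM in coronatine and 5.73 TPM in mock leaves. FAMA and KAT1 rose at 24 h, while MYB60 read 10.1 TPM in coronatine and 13.3 TPM in mock leaves and HT1 2.60 and 2.71 TPM. The xylem markers VND7, IRX3 and XCP1 summed to 28.55 to 36.2 TPM in coronatine leaves at 24 h, against 12.8 to 13.7 TPM in mock leaves, and both that passed the filter rose. The trichome markers GL1, GL2 and TRY summed to 2.48 to 3.71 TPM in coronatine leaves at 3 h, against 8.42 to 14.5 TPM in mock leaves, and 2 of 3 fell. At 12 h 1 rose and 2 fell, with TRY at 10.2 TPM in coronatine and 6.92 TPM in mock leaves. At 24 h 1 fell and 0 rose, with sums of 8.36 to 11.1 TPM in coronatine and 14.1 to 19.1 TPM in mock leaves. Of the phloem markers SUC2, APL and SEOR1, which summed to 157 to 163 TPM in coronatine leaves at 24 h and 176 to 181 TPM in mock leaves, 1 (APL) rose at 24 h. No marker of these lists was at 0 throughout a group. Their part in the results on the RVE and LNK genes was not tested, and in whole leaves fewer cells of a type and less RNA per cell cannot be told apart.

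**Figure D2:**
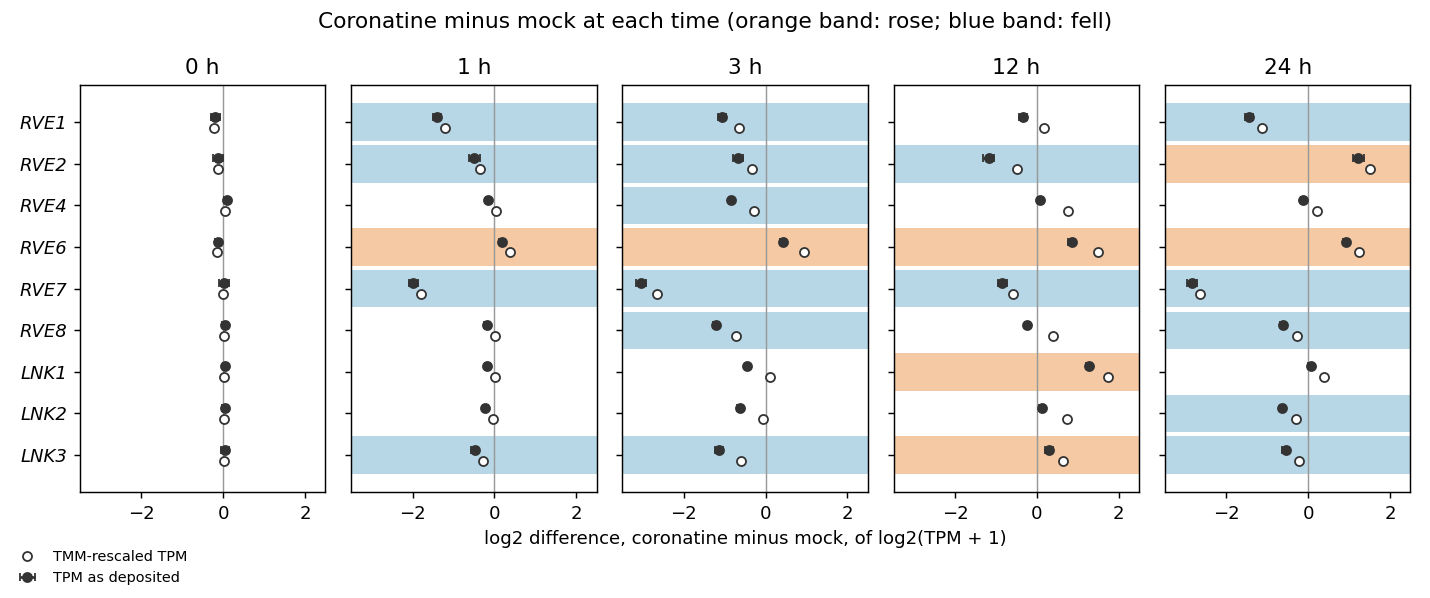
Difference of mean log2(TPM + 1), coronatine minus mock, of each gene at 0, 1, 3, 12 and 24 h (horizontal axis, log2 units). Filled points are TPM as deposited with SE bars, open points are TMM-rescaled TPM, and orange or blue bands mark genes that rose or fell on both. RVE6 rose at 1, 3, 12 and 24 h, RVE7 fell at the same 4 times, and RVE8 lay on either side of 0 at 12 h depending on the scaling.

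RVE7 fell furthest. It had 2.41, 2.94 and 3.47 TPM in coronatine leaves at 1 h, against 14.1, 14.6 and 14.6 TPM in mock leaves, and 0.81, 1.73 and 1.79 TPM at 3 h, against 18.5, 18.6 and 19.3 TPM in mock leaves. At 24 h it read 0.70, 0.87 and 0.72 TPM in coronatine leaves, against 11.5, 11.8 and 11.6 TPM in mock leaves. The groups did not overlap at any of the 4 times from 1 h, and coronatine leaves were lower each time. The log2 differences were −1.98 ± 0.12, −3.05 ± 0.12, −0.84 ± 0.12 and −2.85 ± 0.12 at 1, 3, 12 and 24 h (limma adjusted p = 8.7e-13, 2.5e-17, 5.3e-07 and 2.4e-17). After rescaling they were −1.80, −2.66, −0.58 and −2.64. At 12 h both groups were low, at 0.233 ± 0.114 TPM in coronatine and 1.21 ± 0.232 TPM in mock leaves, so the log2 difference there is the smallest of the 4 although the ratio of means, 0.192, was close to that at 1 h, 0.204. In coronatine leaves RVE7 at 24 h stood at 6.24% of its 0 h mean, against 96.1% in mock leaves.

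RVE1, the auxin-linked member, fell at 1, 3 and 24 h. Coronatine leaves read 4.38, 6.24 and 5.88 TPM at 1 h, against 16.5, 17.5 and 14.1 TPM in mock leaves, and 8.31, 7.99 and 7.97 TPM at 24 h, against 24.97, 21.8 and 24.3 TPM in mock leaves. All coronatine libraries lay below all mock libraries at both times. The ratio of means was 0.343 at 1 h, 0.378 at 3 h and 0.341 at 24 h, with log2 differences of −1.40 ± 0.10, −1.06 ± 0.10 and −1.44 ± 0.10 (limma adjusted p = 1.8e-11, 5.5e-10 and 6.7e-13). After rescaling these differences were −1.21, −0.65 and −1.13. At 12 h, where mock leaves had fallen to 3.45 ± 0.613 TPM and coronatine leaves read 2.49 ± 0.0513 TPM, RVE1 was called on TPM as deposited and not after rescaling (log2 difference −0.34 and 0.18). PORA, a protochlorophyllide reductase gene that RVE1 is known to regulate, read 0.07 ± 0.0520 TPM in coronatine leaves at 24 h, against 2.99 ± 0.421 TPM in mock leaves, and fell at 3, 12 and 24 h. It was not called at 1 h, when RVE1 fell. In mock leaves PORA rose from 2.16 ± 0.537 TPM at 0 h to 7.01 ± 2.31 TPM at 3 h, while RVE1 fell. Whether PORA followed RVE1 was not tested. The other RVE1 output on the list, the auxin synthesis gene YUC8, was below the filter.

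RVE2 changed direction over the course. Its levels were low until 12 h, and limma called it lower at 1 h (1.36 ± 0.110 TPM in coronatine and 2.35 ± 0.616 TPM in mock leaves, adjusted p = 0.0031) and at 3 h (1.28 ± 0.101 and 2.69 ± 0.612 TPM, adjusted p = 3.4e-05). Both calls were lost in the authors' deposited table (adjusted p = 0.068 and 0.059). The 1 h call was also lost when any library of the 6 but mock 1 h replicate 1 was left out (larger adjusted p of both scalings, 0.0502 to 0.222). The 3 h call was lost when coronatine replicate 3, mock replicate 1 or mock replicate 3 of that time was left out (0.0859 to 0.166). At its 12 h peak RVE2 read 34.0, 34.95 and 30.5 TPM in coronatine leaves, against 77.4, 75.6 and 75.5 TPM in mock leaves, a ratio of means of 0.435. The log2 difference was −1.18 ± 0.13 (limma adjusted p = 5.0e-09), and −0.49 after rescaling. At 24 h it was higher in coronatine leaves, with 7.14, 7.90 and 10.2 TPM against 3.08, 2.69 and 3.23 TPM in mock leaves, and the difference was 1.22 ± 0.13 on the log2 scale (limma adjusted p = 2.3e-09). The groups did not overlap at either time.

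Of the 3 activators of evening genes, RVE8 and RVE4 both fell at 3 h, when RVE6 rose, and at 24 h RVE8 fell and RVE4 was given no direction. At 3 h RVE8 read 5.02, 4.43 and 4.88 TPM in coronatine leaves at 3 h, against 14.1, 11.7 and 11.7 TPM in mock leaves, and RVE4 read 28.0, 27.7 and 27.1 TPM, against 54.2, 49.6 and 47.1 TPM. Both fell, by 1.22 ± 0.07 and 0.84 ± 0.05 on the log2 scale (limma adjusted p = 4.2e-14 and 9.0e-14). After rescaling the differences were smaller, at −0.73 for RVE8 and −0.29 for RVE4. At 24 h RVE8 fell again, with 38.1, 38.7 and 36.2 TPM in coronatine leaves against 61.0, 56.7 and 56.3 TPM in mock leaves, while RVE4 read 72.4 ± 5.06 TPM in coronatine and 78.9 ± 3.12 TPM in mock leaves and its groups overlapped. The log2 difference of RVE8 at 24 h was −0.61 ± 0.07 (limma adjusted p = 1.2e-08), and −0.28 after rescaling. That of RVE4 was −0.12 on TPM as deposited and 0.20 after rescaling, each past the threshold. At 1 h both were called lower on TPM as deposited and not after TMM rescaling, and RVE4 also after quantile normalization (−0.17, limma adjusted p = 0.00613). At 12 h RVE8 read 8.57 ± 0.279 TPM in coronatine and 10.3 ± 0.694 TPM in mock leaves, a log2 difference of −0.23 on TPM as deposited and 0.40 after rescaling, each past the threshold in its own direction, so it is given no direction. RVE4 at 12 h read 42.0 ± 0.235 TPM in coronatine and 39.9 ± 1.06 TPM in mock leaves, called higher after TMM rescaling and not on TPM as deposited.

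RVE6 was the one member that rose at all 4 times from 1 h. Coronatine leaves had 13.4, 14.0 and 13.9 TPM at 3 h, against 10.5, 8.88 and 10.8 TPM in mock leaves. At 12 h they had 17.0, 17.4 and 19.2 TPM, against 9.44, 9.05 and 9.99 TPM, and at 24 h 21.7, 21.5 and 20.4 TPM, against 11.37, 9.79 and 10.8 TPM. From 3 h on every coronatine library was above every mock library. The log2 differences were 0.42 ± 0.07, 0.84 ± 0.07 and 0.93 ± 0.07 at 3, 12 and 24 h (limma adjusted p = 1.5e-05, 1.0e-10 and 1.4e-11), the last a ratio of means of 1.99. After rescaling they were 0.95, 1.49 and 1.24. At 1 h the difference was 0.19 ± 0.07 (limma adjusted p = 0.038) and the groups overlapped. That call was lost when coronatine replicate 1 or 2, or mock replicate 2 or 3, of that time was left out (larger adjusted p of both scalings, 0.0563 to 0.177). In coronatine leaves RVE6 at 24 h stood at 228% of its own 0 h mean, against 104% in mock leaves.

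The LNK coactivators kept their fall toward 12 h in coronatine leaves, with differences in depth and return. LNK1 at 12 h read 4.07, 5.01 and 4.54 TPM in coronatine leaves, against 1.29, 1.32 and 1.31 TPM in mock leaves. All coronatine libraries were higher, by a ratio of means of 3.47 and by 1.26 ± 0.05 on the log2 scale (limma adjusted p = 2.7e-17, and 1.73 after rescaling). The ratio of its 0 h to its 12 h mean was 14.9 in coronatine leaves and 49.9 in mock leaves. At 1 and 3 h LNK1 was called lower on TPM as deposited and after quantile normalization and not after TMM rescaling, and at 24 h it read 69.8 ± 1.39 TPM in coronatine and 67.1 ± 0.293 TPM in mock leaves, called higher after TMM rescaling, not called on TPM as deposited and called lower after quantile normalization (−0.17).

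LNK2, the most abundant member, fell at 24 h. It had 195, 191 and 197 TPM in coronatine leaves, against 318, 292 and 294 TPM in mock leaves, with no overlap. The difference of LNK2 was −0.63 ± 0.06 on the log2 scale (limma adjusted p = 1.3e-09), and −0.30 after rescaling. At 24 h its mean was 56.3% of that at 0 h in coronatine leaves and 89.8% in mock leaves. At 1 and 3 h LNK2 was called lower on TPM as deposited and not after TMM rescaling, at 219 ± 5.30 TPM in coronatine and 256 ± 15.0 TPM in mock leaves at 1 h. It was also called lower after quantile normalization at both times (−0.30 and −0.55), and with a filter at a TPM of 5 the 3 h call held on both scalings (larger adjusted p 0.0383). At 12 h it read 7.24 ± 0.598 TPM in coronatine and 6.62 ± 0.700 TPM in mock leaves, with overlap, called higher after TMM rescaling and not on TPM as deposited, and on both scalings when coronatine or mock replicate 3 of that time was left out (larger adjusted p 0.0189 and 0.034). LNK3 fell at 3 h, with 15.5, 14.7 and 12.8 TPM in coronatine leaves against 34.5, 29.8 and 33.8 TPM in mock leaves (log2 difference −1.14 ± 0.09, limma adjusted p = 5.2e-11, and −0.60 after rescaling). It was also called lower at 1 h (67.6 ± 3.60 TPM in coronatine and 95.1 ± 6.92 TPM in mock leaves) and at 24 h (90.3 ± 4.20 and 133 ± 6.31 TPM), with no overlap at either time, although after rescaling these calls were near the threshold (limma adjusted p = 0.033 and 0.042). The 1 h call was lost when coronatine replicate 2, or mock replicate 1 or 2, of that time was left out (larger adjusted p 0.0733 to 0.141). The 24 h call was lost when coronatine replicate 2 or 3, or mock replicate 1 or 3, was left out (0.0683 to 0.142). At 1 and 24 h the LNK3 calls were also lost with a pseudocount of 0.1 (larger limma adjusted p 0.131 and 0.135) and with no filter (0.0525 and 0.057). The authors' deposited table called LNK3 lower at both times (adjusted p = 0.00104 and 0.000988). At 12 h LNK3 was called higher at a level near 1 TPM (1.02, 1.71 and 1.06 TPM in coronatine leaves, against 1.05, 0.63 and 0.81 TPM), where the groups overlapped, and without coronatine 12 h replicate 2 it was not called (adjusted p = 0.084).

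The coronatine effect itself differed between neighbouring times for 4 of the 9 members from 1 to 3 h and for 8 in each later interval. From 1 to 3 h it moved up for 1 member and down for 3, beside 11.2% and 25.1% of all genes. From 3 to 12 h it moved up for 8 and down for 0 (30.0% and 30.8% of all genes), and from 12 to 24 h up for 1 and down for 7 (25.3% and 15.1%). On TPM as deposited LNK1 had the largest move of a LNK gene, 1.71 ± 0.07 from 3 to 12 h (limma adjusted p = 1.2e-15), and RVE2 the largest of any member from 12 to 24 h, 2.40 ± 0.18 (limma adjusted p = 4.9e-11). After rescaling the move from 12 to 24 h was 1.99 for RVE2 and −2.05 for RVE7. Neighbouring intervals share the libraries of the time between them.

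The patterns of the members over the 10 groups were compared by correlation, given as a description: the points are 10 group means, and coronatine and mock groups of the same hour share that hour. RVE4 and RVE8 had a Pearson correlation of 0.98 in mean log2(TPM + 1), and LNK2 and LNK3 one of 1.00, with LNK1 at 0.97 to each. RVE1 stood at 0.93 to RVE8 and 0.91 to RVE4. RVE2 was negatively related to the LNK genes, at −0.86 to LNK1, −0.84 to LNK2 and −0.80 to LNK3. RVE6 was weakly related to most members and had −0.74 to RVE7. Among all tested genes, the one most like LNK1 was STO (BBX24), a B-box gene, at 0.99, with the clock gene PRR9 in rank 3 at 0.97. LNK4 (0.99) followed LNK3 for LNK2, CCA1 (0.99) followed LNK2 for LNK3, and ABA1, which encodes zeaxanthin epoxidase, was in rank 3 for both (0.99). BBX19, another B-box gene, was in rank 3 for RVE1 (0.98) and RVE4 (0.96). The gene most like RVE6 was POB1 (0.99), the one most like RVE7 was PGL1 (0.98), the one most like RVE8 was the FtsH protease gene FTSH9 (0.98), and the one most like RVE2 was EB1a (0.98).

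**Figure D3:**
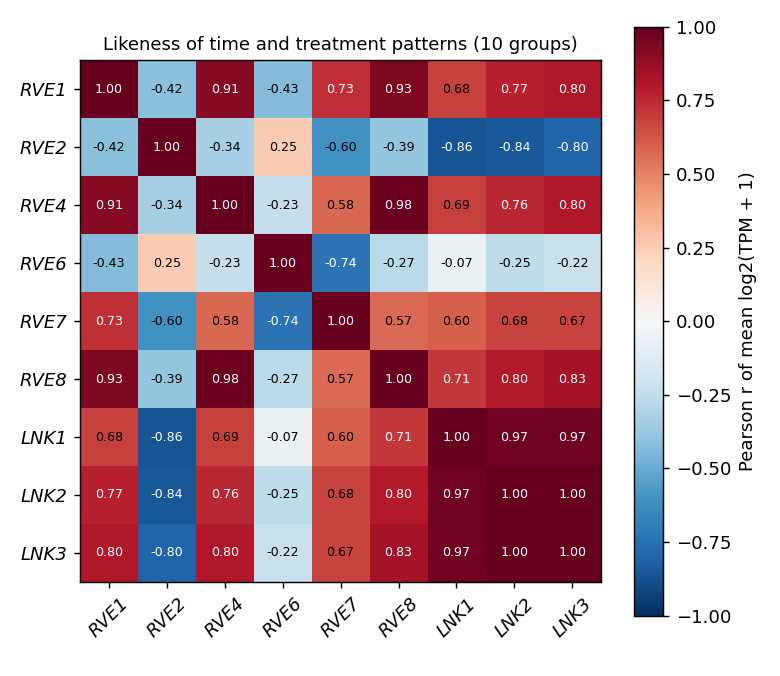
Pearson correlation of mean log2(TPM + 1) between each pair of the 9 genes over the 10 groups of treatment and time (colour and printed value, from −1 to 1). The 3 LNK genes form a block at 0.97 or above, RVE4 and RVE8 stand at 0.98, and RVE2 and RVE6 stand apart from the others.

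The rest of the family was set beside the members. LNK4, a relative of LNK3, read 40.4 ± 2.91 TPM in coronatine leaves at 24 h, against 96.8 ± 4.02 TPM in mock leaves, and fell at 24 h, while at 12 h it rose at a low level (1.14 ± 0.425 TPM in coronatine and 0.46 ± 0.135 TPM in mock leaves). RVE3 fell at 1, 3, 12 and 24 h but stayed at 4.69 TPM or less in mean level at these times. RVE5 fell at 3 h, to 3.75 TPM in coronatine leaves against 8.66 TPM in mock leaves. The fourth, AT3G10113, was below the filter.

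Genes that wild-type work places under RVE8 and the LNK proteins (PRR5, TOC1, PRR9, ELF4, LUX, GI and FKF1) split as well. Of these 7 genes 1 rose and 3 fell at 1 h, 2 rose and 4 fell at 3 h, 3 rose and 1 fell at 12 h, and 5 rose and 0 fell at 24 h. Over all genes 9.52% rose and 15.5% fell at 1 h, 14.2% and 36.1% at 3 h, 24.3% and 41.7% at 12 h, and 37.2% and 43.5% at 24 h. LUX, a subunit of the evening complex, rose at each of these times, to 25.9 ± 1.73 TPM in coronatine leaves at 1 h against 6.37 ± 1.16 TPM in mock leaves, and to 56.7 ± 3.26 TPM at 24 h against 8.88 ± 0.943 TPM. PRR5, a repressor of the clock that peaked at 3 h in both treatments, read 5.47 ± 0.793 TPM in coronatine leaves at 24 h against 0.627 ± 0.0777 TPM in mock leaves. TOC1 fell at 1, 3 and 12 h, to 8.12 TPM in coronatine leaves at 3 h against 19.5 TPM in mock leaves, and GI, which also fell at 1 and 3 h, read 19.8 TPM in coronatine and 46.1 TPM in mock leaves at 3 h. The median log2 difference of the 7 was −0.29, −0.85, 0.10 and 0.70 at 1, 3, 12 and 24 h, against the medians of all genes given above.

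**Figure D4:**
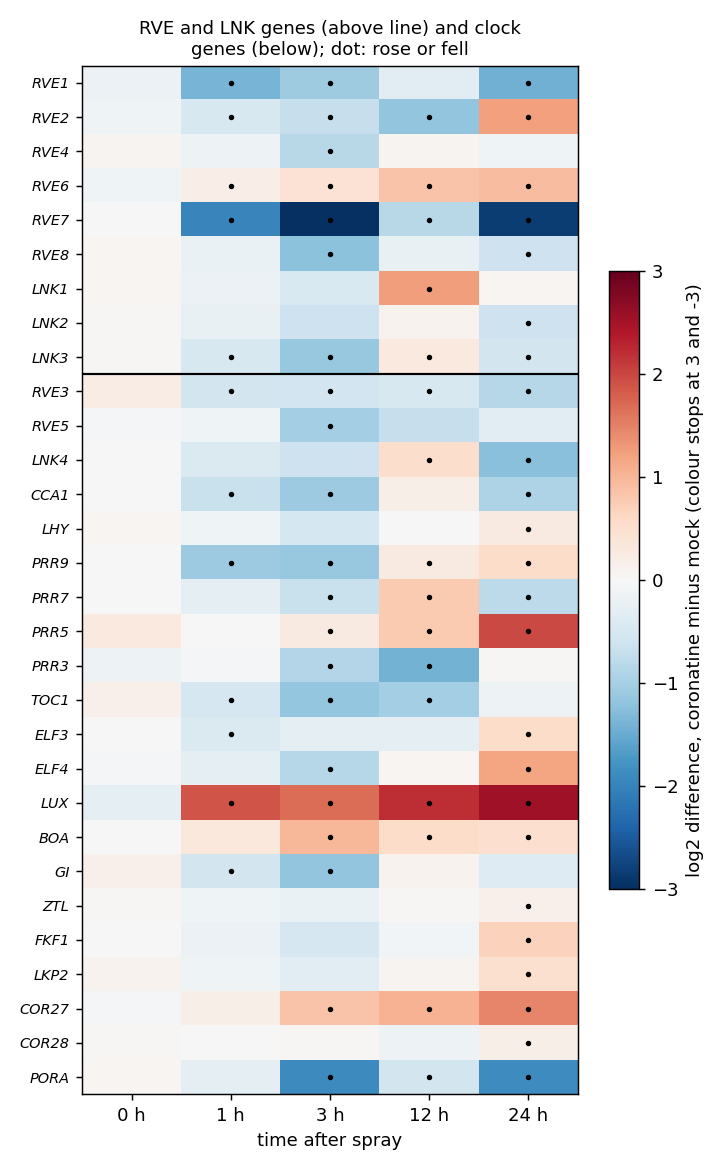
Difference of mean log2(TPM + 1), coronatine minus mock (colour, log2 units, stopping at 3 and −3), of the 9 RVE and LNK genes above the line and of related clock genes below it, at 5 times. Dots mark genes that rose or fell on both scalings. LUX and RVE6 rose at 1, 3, 12 and 24 h, and RVE7 and RVE3 fell at the same times.

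CCA1 and LHY, the MYB genes most closely related to the RVE family, did not move alike. CCA1 fell at 1, 3 and 24 h, with 73.0 ± 8.53 TPM in coronatine leaves at 24 h against 139.96 ± 7.34 TPM in mock leaves, while LHY rose at 24 h, at 128 TPM in coronatine and 106 TPM in mock leaves. Of the 5 pseudo-response regulator genes 0 rose and 2 fell at 1 h, 1 rose and 4 fell at 3 h, 3 rose and 2 fell at 12 h, and 2 rose and 1 fell at 24 h, beside the shares of all genes given above. Of the 4 evening complex genes (ELF3, ELF4, LUX and BOA) 1 rose and 1 fell at 1 h, 2 rose and 1 fell at 3 h, 2 rose and 0 fell at 12 h, and 4 rose at 24 h, beside the same shares of all genes (37.2% rose at 24 h). Levels of ELF4 and BOA at 24 h were low, at 1.81 and 0.693 TPM in coronatine and 0.247 and 0.19 TPM in mock leaves. COR27, a cold- and light-regulated repressor of clock genes, rose at 3, 12 and 24 h, to 35.65 TPM in coronatine leaves at 12 h against 16.7 TPM in mock leaves. Its relative COR28 was not called on both scalings at 3 or 12 h (6.91 TPM in coronatine and 7.79 TPM in mock leaves at 12 h) and at 24 h was called higher near 0, at 0.14 TPM in coronatine and 0.0133 TPM in mock leaves (limma adjusted p = 0.0498). Of GI and the 3 LOV F-box genes ZTL, FKF1 and LKP2, 1 fell and 0 rose at 1 h and at 3 h (15.5% and 36.1% of all genes fell), 0 were called at 12 h, and 3 rose at 24 h (37.2% of all genes rose).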

How the data were processed

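Total RNA of whole leaves was sequenced on a BGI DNBseq instrument, per the labels' protocols, from samples with an RNA integrity number of at least 6.5. The authors deposited TPM per gene, with column sums from 999998.88 to 1000000.7, so depth is unknown. Per the submitters' processing notes, RSEM 1.3.3, DESeq2 and the TAIR10 build were used, and row names carry Araport11, per the file headers. The aligner is not given in the sources used here. The authors also deposited, per the file headers, a table per time with a base mean (a normalized signal), a log2 fold change with its standard error, a test statistic (a score) and an unadjusted and an adjusted p-value, used here as an alternative.

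The filter asked for a TPM of 1 or more in 3 or more samples. Values entered limma 3.58.1 (R 4.3.3) as log2(TPM + 1), with one mean per treatment and time over 30 samples, a mean-variance trend and two-sided tests, and again after TMM rescaling (trims of 30% and 5%). The filter kept 9 of 9 members. The contrasts were coronatine minus mock, its difference between neighbouring times, and later mock leaves minus mock leaves of 0 h. Named genes were the members, fixed lists of related clock genes, and per member the 3 genes with the highest correlation over groups. Members, lists and the rule that a call must hold on both scalings were chosen with earlier results of these data known. The procedure was tested on simulated data with no shift of the median gene, so that test did not cover shifts like those seen here. Gene positions in the deposited tables and in RefSeq's TAIR10.1 were on the same chromosome for 32833 of 32833 shared loci, with an identical start or end for 17886, so upstream sequence was read from TAIR10.1. Alternatives were other pseudocounts, filters and scalings, no trend, only the groups compared, a replicate block, and leaving out each library. Same-numbered replicates did not pair the samples.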

Additional observations from a re-analysis of the deposited data

Results flagged for a closer look

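The members below are listed because the coronatine effect on them differed between 2 neighbouring times. The rule was a test of the difference itself (limma, adjusted p below 0.05 on both scalings). Many other genes passed it too. Over all genes the effect moved up for 11.2% and down for 25.1% from 1 to 3 h. The shares were 30.0% and 30.8% from 3 to 12 h, and 25.3% and 15.1% from 12 to 24 h. Values are the later minus the earlier effect on the log2 scale, on TPM as deposited. From 1 to 3 h the effect on RVE4 moved by −0.69, that on RVE7 by −1.07 and that on RVE8 by −1.03, while that on RVE1 moved by 0.34. The RVE1 move was lost when coronatine 1 h replicate 1, coronatine 3 h replicate 1 or 2, mock 1 h replicate 1 or 2 or mock 3 h replicate 3 was left out (larger adjusted p of both scalings, 0.0578 to 0.173). It was also lost with a pseudocount of 0.1 (move of 0.18, larger limma adjusted p 0.36), with no filter (0.0573) and in a fit of only the groups compared (0.113). The ratio of RVE1 means, coronatine to mock, was 0.343 at 1 h and 0.378 at 3 h, so a weaker effect at 3 h is not read from this.

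From 3 to 12 h the effect moved up for 8 members, by 2.20 for RVE7, 1.71 for LNK1, 1.44 for LNK3, 0.99 for RVE8, 0.91 for RVE4, 0.75 for LNK2, 0.72 for RVE1 and 0.42 for RVE6. RVE7 was close to 1 TPM or below in both groups at 12 h, where log2(TPM + 1) compresses differences.

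From 12 to 24 h the effect on RVE2 moved by 2.40. It moved by −2.00 for RVE7, −1.20 for LNK1, −1.10 for RVE1, −0.85 for LNK3, −0.74 for LNK2, −0.38 for RVE8 and −0.20 for RVE4. The RVE4 move was lost when coronatine 24 h replicate 3 or mock 24 h replicate 1 was left out (larger adjusted p 0.0732 and 0.06). Groups of 3 libraries were too small for a search for single libraries that stand apart.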

How the results depend on the processing

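Which members count as changed depends mostly on the scaling. At 1 h 5 members were called, 3 with no filter, 9 on TPM as deposited alone, 3 in a fit of only the groups compared and 2 to 4 without 1 library. At 3 h 7 were called and 6 to 7 without 1 library, and at 24 h 7 and 6 to 7. LNK1 and LNK2 were also called at 3 h on TPM as deposited alone and after quantile normalization, while RVE2 was lost after the latter. RVE4 and LNK1 were also called at 24 h on TMM-rescaled TPM alone, after quantile normalization and in the authors' deposited table. At 12 h 5 were called, 8 on TMM-rescaled TPM alone, 9 after quantile normalization, 8 in the authors' deposited table and 4 to 6 without 1 library. Of all 19005 genes, 12535 were called at 12 h on both scalings and 16164 on TMM-rescaled TPM alone, so most genes were called there. For the change of the effect from 1 to 3 h 4 were called, 7 on TPM as deposited alone and 3 to 6 without 1 library. From 3 to 12 h 8 were called, and 8 without any 1 library; from 12 to 24 h 8, and 7 to 8. Mock counts at 1, 3 and 12 h (6, 7 and 8) and the counts of 0 at 0 h and in mock leaves at 24 h did not change without 1 library. The replicate block gave 5, 7, 5 and 7 members at 1, 3, 12 and 24 h, the counts without it, and changed no call of a member. Same-numbered coronatine and mock libraries had deviations correlated from −0.254 to 0.122, with 2 of 15 pairs over 0.1.

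Directions reversed at 12 h for RVE8 (0.40 on TMM-rescaled TPM, 0.37 after quantile normalization and 0.42 in the authors' deposited table) and RVE1 (0.47 after quantile normalization). At 24 h they reversed for RVE4 (0.20 on TMM-rescaled TPM and 0.17 in the authors' deposited table) and LNK1 (−0.17 after quantile normalization), and for the change of the RVE6 effect from 12 to 24 h (−0.36 after quantile normalization). The cause was not tested. Over all genes, TPM as deposited alone called 9733 at 1 h and 15536 at 3 h, against 4752 and 9545 on both scalings, 10804 and 11638 for the changes from 1 to 3 h and 12 to 24 h, against 6891 and 7676, and 11541 for mock leaves at 12 h, against 5854. For mock leaves at 24 h 66 genes were called, 105 after quantile normalization, 0 in a fit of only the groups compared and 18 to 39 without mock 0 h replicate 2 or 3 or mock 24 h replicate 2 or 3. At 0 h a pseudocount of 0.1 gave 1 gene. TPM keeps no depth, so the precision of members near 1 TPM could not be stated.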
